A study of Mus musculus with 12 samples.

Results

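The 10 neuropeptide precursor genes Sst, Npy, Vip, Cck, Penk, Pdyn, Tac1, Tac2, Crh and Pnoc were followed through bulk RNA sequencing of mouse dorsal hippocampus. They were taken from the deposited count table by gene symbol, and all 10 of 10 were found among its 24985 genes and passed the filter on low counts, which kept 14742 genes. The series asked how tau pathology and dietary acetate change hippocampal gene expression. It held 12 libraries, each labelled as 1 C57Bl6/J mouse without a gene deletion, with 3 mice in each of 4 groups. All mice had a unilateral injection at 6 months of age, of either PBS or 1 µg of AD tau, which is tau purified from the brains of people with Alzheimer's disease. They were then kept on control chow or on chow with 5% Na-acetate and were killed 6 months after the injection, 24 hours after a memory recall test. The labels name TestDiet standard chow for the control diet and LabDiet chow as the base of the acetate diet, whereas the study's methods call the control diet matched in calories. Whether the base chows were otherwise the same is not given in the sources used here. AD tau was given as a seed to wild-type mice, so the model rests on the injected material and the mice's own tau. RNA came from 1 mm slices of the right dorsal hippocampus, cut by hand, so each value is an average over all cells of the slice, and fewer cells of a type and less RNA per cell cannot be told apart.

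Neuropeptides are made as longer precursors, cut by prohormone convertases inside dense core vesicles and released during sustained firing to act on G protein-coupled receptors. In the hippocampus, somatostatin (Sst) and neuropeptide Y (Npy) mark dendrite-targeting interneurons, vasoactive intestinal peptide (Vip) marks interneurons that inhibit other interneurons, and cholecystokinin (Cck) is made by a basket cell class and by pyramidal cells. Enkephalin (Penk) and dynorphin (Pdyn) are opioid peptides, the latter stored in the mossy fibres of dentate granule cells. The tachykinin genes Tac1 and Tac2 encode substance P and neurokinin B.

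Several genes of this family are known targets of the cyclic AMP response element, the site TGACGTCA, which was first described in the Sst promoter. The RefSeq promoter table for GRCm38.p6 held 8 promoters for 7 of the 10 genes. Penk, Crh and Pnoc have no entry. The site was searched on both strands of the 250 bases before each transcription start, together with its shorter form TGACG, which also lies inside the longer site, and TATAAA was searched on the coding strand in the last 50 bases. The 3 promoters printed here belong to genes whose groups separated in at least 1 comparison. Each shows the last 120 bases before the start in the coding direction, with matches in capitals. Sst lies at chr16:23890845-23890964, minus strand, Vip at chr10:5639098-5639217, plus strand, and Tac1 at chr6:7554941-7555060, plus strand.
Sst: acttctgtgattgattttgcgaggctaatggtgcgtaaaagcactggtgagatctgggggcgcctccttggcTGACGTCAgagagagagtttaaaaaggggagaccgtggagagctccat
Vip: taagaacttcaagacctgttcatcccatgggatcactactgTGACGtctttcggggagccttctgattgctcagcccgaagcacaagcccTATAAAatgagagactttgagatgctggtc
Tac1: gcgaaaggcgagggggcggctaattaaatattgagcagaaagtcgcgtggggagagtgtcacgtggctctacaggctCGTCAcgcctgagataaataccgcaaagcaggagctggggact
Among the 8 promoters, the full site was found in that of Sst, where it begins 48 bases before the start, and 1.55% of 32851 promoters in the table held it. The shorter form was found in Sst, Vip, Cck and Tac1 and in 17.8% of all promoters. TATAAA was found in Vip, beginning 30 bases before the start, and in 2.63% of all promoters. No binding was measured here, and these are matches of letters.

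Some libraries carried marks that touch the values below. The labels call all mice male, but each library held 13583 to 25991 counts of Xist, which is transcribed from an inactivated X, and 0 counts over 8 Y-linked genes. Library totals ran from 12983233 to 20218340 counts. Mouse 3 of the AD tau-injected acetate group held genes of the medial habenula, a nucleus next to the hippocampus, and mouse 2 of the PBS-injected control group was highest for the 6 thalamus marker genes, with a summed level of 231 CPM (counts scaled to a common library size) against 37.9 to 110 CPM in the other 11 libraries. The hippocampal markers were present in all libraries, and the CA1 marker sum was lowest in the PBS-injected control group, at 492 to 638 CPM, and 672 to 1030 CPM elsewhere.

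The 10 genes covered a wide range of expression. Per kilobase of exon, the scale on which different genes can be set side by side (FPKM), Cck and Sst were the most abundant, at 189 ± 17.1 and 186 ± 42.2 FPKM (SD, n = 12), and did not differ beyond their spread, since Cck was above Sst in 7 of 12 mice. Npy followed at 61.2 ± 5.05 FPKM, then Penk at 22.6 ± 3.85 FPKM and Pdyn at 7.72 ± 0.955 FPKM. Down to Pdyn and on to Pnoc, at 3.58 ± 0.545 FPKM, the ranges of neighbours other than the first pair did not overlap. Pnoc was above Vip, at 2.80 ± 0.668 FPKM, in 9 of 12 mice. Tac2, Tac1 and Crh were the least abundant, with medians of 1.17, 1.51 and 1.31 FPKM and ranges that overlapped throughout.

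**Figure D1:**
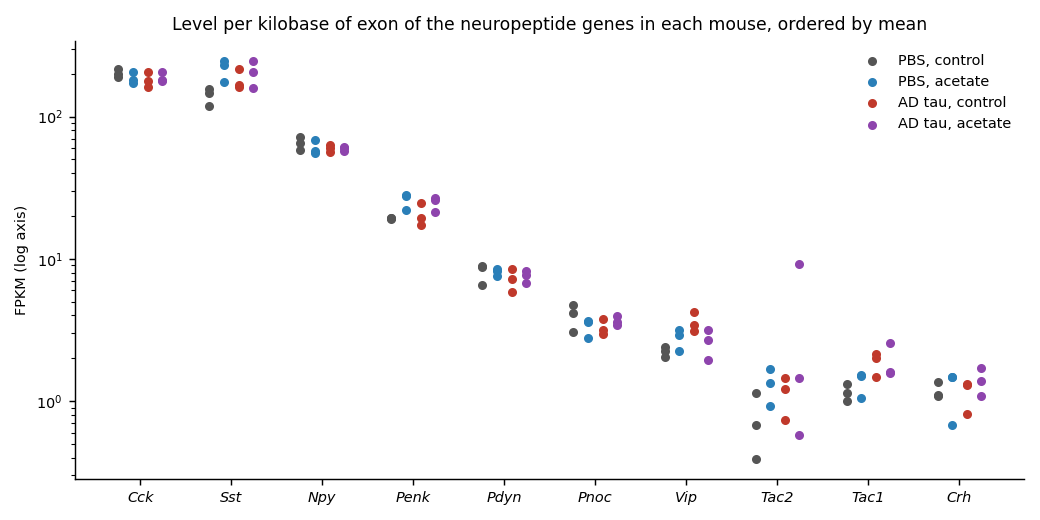
FPKM of each neuropeptide gene on a log axis, ordered by mean over the 12 mice, with 1 point per mouse and 1 color per group. Cck and Sst overlap near 190 FPKM, and Tac2 has 1 mouse at 9.23 FPKM while the others lie between 0.392 and 1.69 FPKM.

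The genes also differed in how much mice of a group varied. Npy and Cck were the steadiest, with a coefficient of variation within groups of 8.60% and 9.40%, whereas Tac2 reached 139%. Crh was read at 14 to 38 counts per library, so that counting alone gave 19.6% of its 26.2%.

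**Figure D2:**
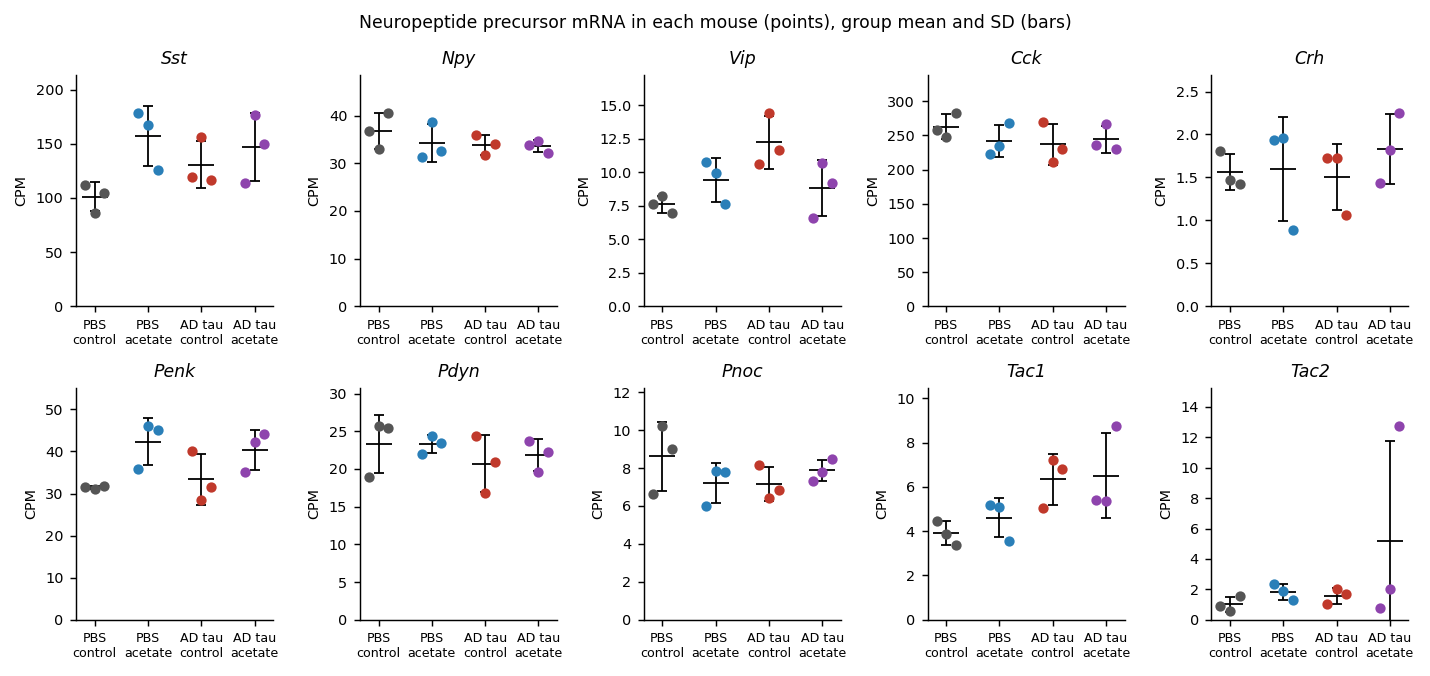
CPM of each gene in each mouse (points, mouse 1 to 3 from left to right) for the 4 groups, with the group mean and SD (bars, the SD bar of Tac2 being cut at 0). Penk and Sst of the PBS-injected acetate mice lie above all PBS-injected control mice, and Vip of the AD tau-injected control mice lies above all PBS-injected control mice.

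Penk, the enkephalin precursor, was the only member to pass edgeR's test in any of the 5 comparisons, which were AD tau against PBS on each diet, acetate against control diet after each injection, and the interaction of diet and injection. Among PBS-injected mice it was on control chow at 31.5, 31.0 and 31.8 CPM, and on acetate at 35.9, 45.9 and 45.2 CPM. The groups did not overlap, and the control mice lay within 1 CPM of one another. Penk rose 1.35-fold with acetate, a log2 difference of 0.43 (SE 0.13, 95% CI 0.16 to 0.70, adjusted p = 0.0693, quasi-likelihood F test of edgeR, Benjamini-Hochberg over all genes tested). By that test 1 of the 10 members was higher and 0 were lower at an adjusted p below 0.1, where 8.84% of all genes tested were called and 3.99% were called higher. The groups did not overlap in 2 of 10 members, Penk and Sst, where 26.3% of all genes tested did not, and 2 members had an unadjusted p below 0.05, where 20.8% did. The members' median log2 difference was 0.14, beside 0.00 over all genes tested. The call was lost without any of the 3 control mice (adjusted p of 0.143 to 0.192) and without acetate mouse 2 or 3 (0.257 and 0.147). Over all genes, 1303 were called with every mouse, and 727, 982 and 248 without control mouse 1, 2 and 3. Without acetate mouse 2 or 3 the number was 15 and 1355.

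In AD tau-injected mice Penk was at 40.2, 28.4 and 31.6 CPM on the control diet and 35.0, 42.2 and 44.1 CPM on the acetate diet. These groups overlapped, with AD tau control mouse 1 at the level of the acetate mice. The log2 difference was 0.27 (95% CI 0.00 to 0.54, adjusted p = 0.450 by edgeR), and the difference between the responses to acetate in the 2 injection groups was -0.16 (95% CI -0.54 to 0.22, adjusted p = 0.783). Penk did not pass the test between AD tau and PBS on either diet, at 0.09 (95% CI -0.19 to 0.36) and -0.07 (95% CI -0.33 to 0.19).

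Markers of regions and of inhibitory neurons also differed between the diets in PBS-injected mice. In PBS-injected mice, the summed level of the 8 pan-inhibitory genes was 956 to 978 CPM on the control diet and 1030 to 1080 CPM on acetate, and that of the 5 CA1 genes was 492 to 638 and 772 to 1020 CPM. The 5 CA3 genes went the other way, from 186 to 227 CPM down to 87.7 to 165 CPM. All 6 oligodendrocyte genes were also below 0 (2 called, median log2 difference -0.53), with sums of 3949 to 5219 CPM on the control diet and 2451 to 3434 CPM on acetate. All 6 thalamus genes were below 0 with 0 called (2 at an unadjusted p below 0.05, median -1.01), with sums of 71.3 to 231 and 49.2 to 59.3 CPM, and 5 of 6 dentate granule genes were above 0 with 0 called (1 at an unadjusted p below 0.05, median 0.18). Over all mice Penk did not follow the inhibitory sum throughout. AD tau control mouse 2 had the highest inhibitory sum, 1097 CPM, and the lowest Penk, 28.4 CPM. AD tau acetate mouse 1 had a sum of 983 CPM and Penk at 35.0 CPM. With the inhibitory score as a covariate the Penk difference in PBS-injected mice was 0.39 (adjusted p = 0.362), and with the CA1 minus CA3 score it was 0.33 (adjusted p = 0.911). In both of these fits 0 of 14742 genes were called for this comparison. The part of these markers in the result was not tested.

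**Figure D3:**
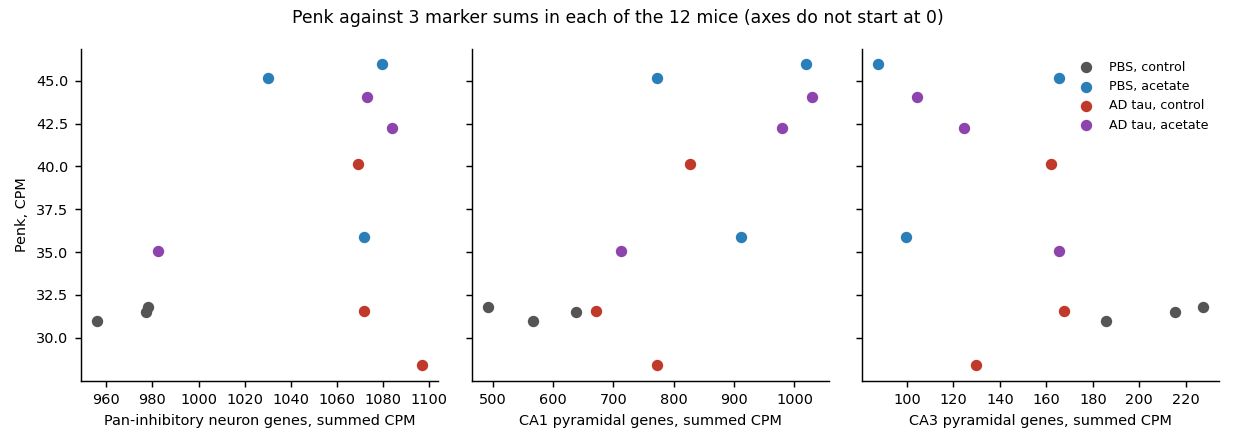
Penk in each of the 12 mice (CPM) against the summed CPM of 8 pan-inhibitory genes, 5 CA1 genes and 5 CA3 genes, with 1 point per mouse colored by group. The 3 PBS-injected control mice sit together at about 31 CPM of Penk with the lowest inhibitory and CA1 sums and the highest CA3 sums. AD tau control mouse 2 has the highest inhibitory sum, 1097 CPM, and the lowest Penk, 28.4 CPM.

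Across the 12 mice, the tested genes whose log2 CPM followed Penk most closely were Psd (Pearson's r = 0.948), Pantr1 (r = 0.930) and Sec14l1 (r = 0.930), which share library and dissection with it. Of the 3, Pantr1 and Sec14l1 passed the same test of acetate in PBS-injected mice, at log2 differences of 0.39 (adjusted p = 0.0360) and 0.20 (adjusted p = 0.0720), and Psd at 0.22 did not (adjusted p = 0.140). Penk lies on chromosome 4 at 4133531 to 4138819 (GRCm38, minus strand, protein coding). A gene on the opposite strand, A830012C17Rik, overlaps it in the annotation, and the authors counted reads by strand.

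Sst had the same order of group means with more spread. It was at 112, 86.1 and 105 CPM in PBS-injected control mice and at 178, 167 and 126 CPM in PBS-injected acetate mice. The groups did not overlap. The log2 difference was 0.64, larger than that of Penk, but with an SE of 0.20 (95% CI 0.17 to 1.10) it missed the threshold (adjusted p = 0.122, edgeR). It was called by DESeq2 on all mice (adjusted p = 0.0394, Wald test), which called 2 members, Sst and Penk, where 9.41% of genes were called, and by edgeR on the 6 compared mice (adjusted p = 0.0809). The markers listed beside Penk apply here too, and with the inhibitory score as a covariate the Sst difference was 0.20 (adjusted p = 0.402), while with the CA1 minus CA3 score it was -0.08 (adjusted p = 0.976). The summed level of 6 cortex genes was 141 and 110 CPM in PBS acetate mice 1 and 2, the highest of their group for Sst, and 111 CPM in AD tau control mouse 2, against 68.5 to 95.6 CPM in the other 9 mice. In those 3 mice, in the same order, Tshz2 held 54.3, 31.6 and 19.2 CPM of the sum and Fezf2 held 36.9, 26.4 and 36.9 CPM. AD tau acetate mouse 2, at 177 CPM of Sst, had a cortex sum of 86.0 CPM. The part of these markers in the values of Sst was not tested. In AD tau-injected mice Sst was at 120, 156 and 117 CPM on the control diet and 114, 177 and 150 CPM on acetate, groups that overlapped (log2 difference 0.16, 95% CI -0.30 to 0.62). The AD tau-injected control mice lay above all PBS-injected control mice, at a log2 difference of 0.37 (95% CI -0.10 to 0.84, adjusted p = 0.639), and the groups did not overlap in 3 of 10 members (Sst, Vip and Tac1) and in 13.5% of all genes tested. On the acetate diet the same contrast was -0.10 (95% CI -0.56 to 0.35).

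The receptor genes of the somatostatin and VIP systems were not uniform under acetate. In PBS-injected mice, Sstr4, a somatostatin receptor, rose from 26.6, 24.2 and 19.1 CPM to 34.6, 36.6 and 28.8 CPM, a log2 difference of 0.52 (SE 0.13, adjusted p = 0.0479). Vipr1, a receptor for VIP, rose by 0.32 on the log2 scale (SE 0.09, adjusted p = 0.0521). Vipr2, the other VIP receptor, fell by 2.88 on the log2 scale (SE 0.63, adjusted p = 0.0268), from 14, 64 and 24 counts to 3, 7 and 6 counts. The 64 counts came from the library with the highest thalamus marker sum, and without it Vipr2 was at -1.90 (adjusted p = 0.0595). Cckbr, the brain receptor for cholecystokinin, fell by 0.65 (SE 0.16, adjusted p = 0.0379), from 10.1, 11.2 and 9.75 CPM to 5.81, 6.50 and 7.41 CPM. The markers listed beside Penk apply to these receptor genes too. With either marker covariate 0 of 14742 genes were called for this comparison, and the part of the markers was not tested.

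Vip was the member with the smallest p between AD tau and PBS on the control diet. PBS-injected control mice were at 7.63, 8.19 and 6.97 CPM and AD tau-injected control mice at 10.6, 14.4 and 11.7 CPM. All AD tau mice were above all PBS mice. The log2 difference was 0.69 (SE 0.18, 95% CI 0.32 to 1.06, adjusted p = 0.284, edgeR), which did not pass, and DESeq2 on all mice gave an adjusted p of 0.0657. In this comparison 0 of the 10 members were called by edgeR, where 0.0136% of all genes tested were, and 2 members, Vip and Tac1, had an unadjusted p below 0.05, where 9.65% of all genes tested did. By DESeq2 on all mice 1 member was called, Vip, where 0.785% of the genes that tool adjusted were.

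On the acetate diet the Vip levels of the 2 injection groups lay side by side. PBS-injected acetate mice were at 10.7, 9.90 and 7.60 CPM and AD tau-injected acetate mice at 6.59, 10.7 and 9.18 CPM, a log2 difference of -0.10 (95% CI -0.46 to 0.26, adjusted p = 0.893). Within AD tau-injected mice, Vip was -0.48 on the log2 scale with acetate against control diet (SE 0.17, 95% CI -0.84 to -0.12, adjusted p = 0.310), with 1 acetate mouse above the lowest control mouse. The difference between the responses to acetate in the 2 injection groups was -0.79 (SE 0.25, 95% CI -1.31 to -0.28, adjusted p = 0.154). By this test of the interaction, 0 of 10 members were called by edgeR and 0 by DESeq2, where 1.56% and 3.2% of genes were, and Vip alone had an unadjusted p below 0.05, where 13% did. Without AD tau acetate mouse 2 the interaction of Vip was -0.96 (adjusted p = 0.0905).

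The 8 pan-inhibitory genes were all above 0 between AD tau and PBS on control chow, where their median log2 difference was 0.14 and 0 were called (3 at an unadjusted p below 0.05), and their summed level was 1069 to 1097 CPM in the AD tau-injected control mice against 956 to 978 CPM. In the same comparison all 6 oligodendrocyte genes were below 0 (median -0.62, each at an unadjusted p below 0.05, 0 called), with sums of 3949 to 5219 CPM after PBS and 2616 to 3241 CPM after AD tau. All 5 CA1 genes were above 0 (median 0.53, 3 at an unadjusted p below 0.05, 0 called), and all 6 thalamus genes were below 0 (median -1.15, 1 at an unadjusted p below 0.05, 0 called). With the pan-inhibitory score as a covariate the Vip difference was 0.10 (adjusted p = 1.00), and with the CA1 minus CA3 score it was 0.30 (adjusted p = 0.998). Both fits called 0 of 14742 genes for this comparison, where the main fit called 2. AD tau control mouse 2, the highest for Vip, was also high for Fezf2 (36.9 CPM) and Grp (11.9 CPM), as were PBS acetate mouse 1 (36.9 and 7.17 CPM) and PBS acetate mouse 2 (26.4 and 4.54 CPM), whereas the other 9 mice were at 16.6 to 20.8 CPM of Fezf2 and 0.577 to 3.13 CPM of Grp. Fezf2 is a marker of deep cortical layers and Grp is a peptide precursor, and both were chosen after their values were seen. The cortex genes Rorb, Cux2 and Stard8 did not set the mice high in Fezf2 apart from the other 9. The cortex gene Tshz2 was highest in PBS acetate mice 1 and 2, at 54.3 and 31.6 CPM. It was at 19.2 CPM in AD tau control mouse 2, inside the 4.60 to 23.8 CPM of the other 9. Without that AD tau mouse the Vip difference was 0.55 (adjusted p = 0.804). The part of these markers in the values of Vip was not tested.

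Tac1, the substance P precursor, was higher after AD tau than after PBS on each diet before adjustment for the number of genes tested. On the control diet it was at 4.48, 3.86 and 3.39 CPM in PBS mice and 5.05, 7.23 and 6.79 CPM in AD tau mice, and on the acetate diet at 5.17, 5.11 and 3.58 CPM and 5.40, 5.38 and 8.74 CPM. Neither pair of groups overlapped, where 13.5% and 16.2% of all genes tested did not. The log2 difference was 0.70 on the control diet (SE 0.22, 95% CI 0.23 to 1.16, unadjusted p = 0.00573, adjusted p = 0.351, edgeR) and 0.48 on the acetate diet (SE 0.21, 95% CI 0.04 to 0.92, unadjusted p = 0.0350, adjusted p = 0.442). Both failed the correction, and they used different mice. With the inhibitory score as a covariate they were 0.22 and 0.52, and with the CA1 minus CA3 score 0.29 and 0.63, none of them called. The highest Tac1 value came from the AD tau acetate mouse with habenula genes, and without it the difference on the acetate diet was 0.22 (adjusted p = 0.778). With acetate Tac1 differed by 0.24 in PBS-injected mice (95% CI -0.24 to 0.71) and by 0.02 in AD tau-injected mice (95% CI -0.41 to 0.46).

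**Figure D4:**
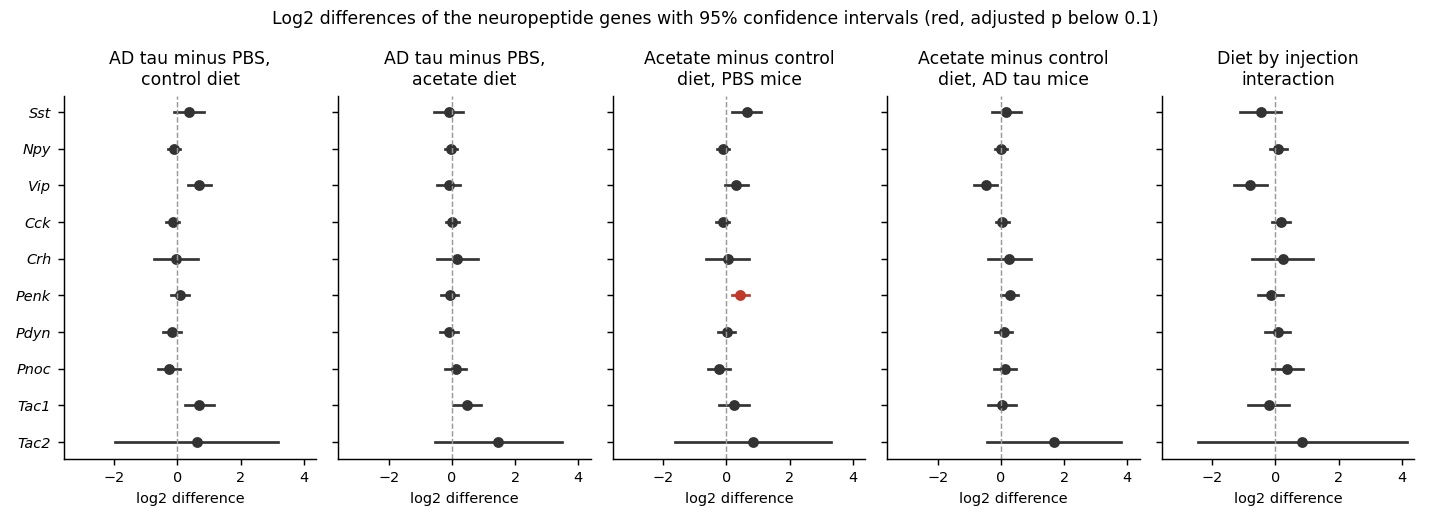
Log2 difference of each gene with its 95% confidence interval in the 4 comparisons of groups and in the interaction, all on the same axis. Penk under acetate in PBS-injected mice (red) is the only interval whose adjusted p is below 0.1, and the intervals of Tac2 are the widest.

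Tac2, the neurokinin B precursor, turned on 1 library. Its counts were 16, 7 and 23 in PBS control mice, 36, 36 and 20 in PBS acetate mice, 14, 30 and 22 in AD tau control mice, and 16, 33 and 198 in AD tau acetate mice. The last value is 12.7 CPM, against 0.541 to 2.33 CPM in the other 11 mice. The same mouse was the highest for all 5 medial habenula genes. Gpr151, a receptor of habenular neurons, was at 11.4 CPM there and at 0.339 to 1.79 CPM elsewhere. The nicotinic receptor subunits Chrnb4 and Chrna3 had 97 and 100 counts, against at most 11 and 15 in any other library, the transcription factor Pou4f1 had 137 against at most 8, and Nwd2 was at 79.6 CPM against 28.2 to 53.7 CPM. Calb2, a calcium-binding protein used here as an interneuron and mossy cell marker, was also highest there, at 20.4 CPM.

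**Figure D5:**
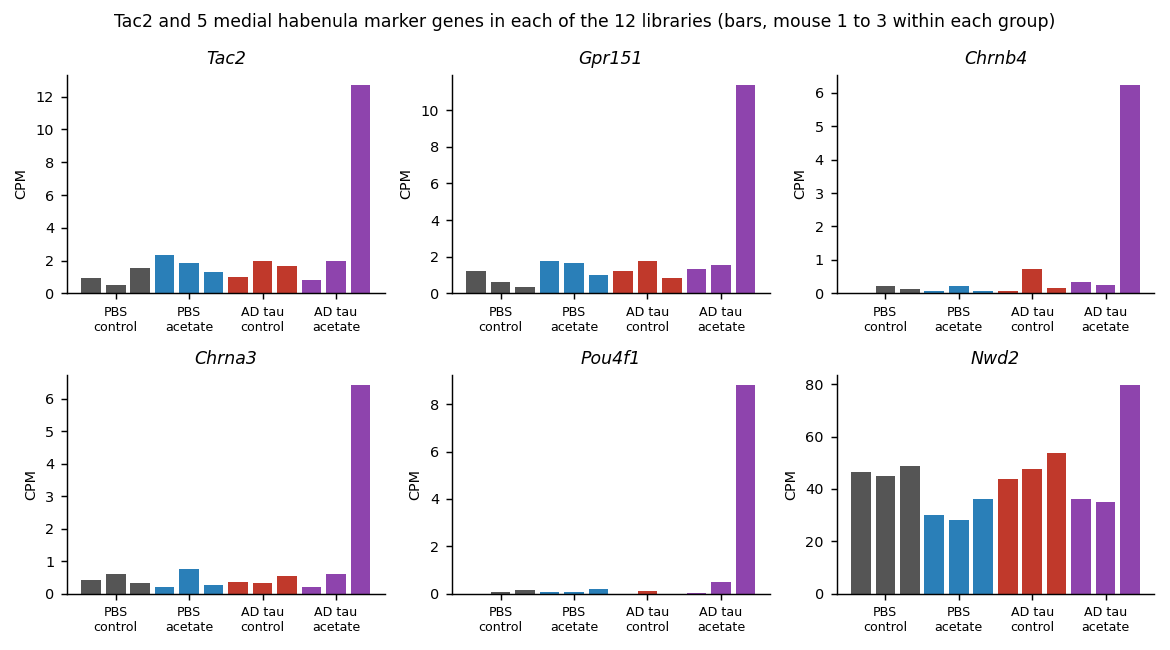
CPM of Tac2 and of the 5 medial habenula genes in each of the 12 libraries, as bars in the order mouse 1 to 3 within each group. AD tau acetate mouse 3 is the tallest bar in all 6 panels, at 12.7 CPM of Tac2 and 11.4 CPM of Gpr151.

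The comparisons that include this mouse changed direction for Tac2 without it. AD tau against PBS on the acetate diet went from a log2 difference of 1.47 to -0.42, acetate against control diet in AD tau mice from 1.68 to -0.19, and the interaction from 0.85 to -1.03, none of them called. Comparisons of groups that do not hold the mouse gave Tac2 0.61 (95% CI -1.97 to 3.19) for AD tau on the control diet and 0.83 (95% CI -1.64 to 3.30) for acetate in PBS-injected mice. Their spread was still estimated over all 12 libraries, this mouse included. The coefficient of variation of Tac2 within groups was 139%, beside 16.3% from counting alone. Such intervals hold changes of several fold in either direction. Between AD tau and PBS on the acetate diet, 0 of 10 members were called by edgeR, where 0.136% of all genes tested were, and 0 by DESeq2, where 0.882% were, and 1 member, Tac1, had an unadjusted p below 0.05, where 10.3% did. Between diets in AD tau mice, 0 members were called by edgeR, where 0.0611% were. DESeq2 called 0 members, where 1.55% of the genes it adjusted were called, and gave no adjusted p for Tac1, Tac2 and Crh. There 2 members, Vip and Penk, had an unadjusted p below 0.05, where 10.9% did, and 0 had groups that did not overlap, where 14.4% did.

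The other 5 members passed no test in any comparison, by edgeR or by DESeq2 on all mice. DESeq2 gave Crh no adjusted p for AD tau on the control diet or between diets in AD tau mice. Npy lay between 31.4 and 40.5 CPM in the 12 mice, with group means of 36.8, 34.3, 33.9 and 33.6 CPM in the order PBS control, PBS acetate, AD tau control and AD tau acetate. Its largest difference, AD tau against PBS on the control diet, was -0.12 (95% CI -0.31 to 0.07), so the interval reaches no further than a log2 change of 0.31. Cck was as steady, at group means of 263, 242, 237 and 244 CPM, and its differences between groups ran from -0.15 (95% CI -0.35 to 0.05) for AD tau on the control diet to 0.04 for acetate in AD tau mice. The intervals of both genes are the narrowest among the 10.

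Pdyn, carried by granule cell mossy fibres, had group means of 23.3, 23.3, 20.7 and 21.8 CPM and a difference of 0.01 with acetate in PBS-injected mice (95% CI -0.27 to 0.29). That of Penk was 0.43, and the difference between the 2 opioid genes was not tested. Pnoc, the precursor of nociceptin, had group means of 8.61, 7.21, 7.15 and 7.87 CPM. It was at -0.26 for AD tau on the control diet (95% CI -0.61 to 0.09) and at -0.24 for acetate in PBS-injected mice (95% CI -0.58 to 0.10), with its highest value, 10.2 CPM, in the PBS control mouse with thalamus genes. Crh, the stress hormone precursor made by a set of hippocampal interneurons, had group means of 1.56, 1.60, 1.51 and 1.83 CPM. Its difference for AD tau on the control diet was -0.05 (95% CI -0.75 to 0.65), an interval that holds changes in either direction.

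Beyond the members, 38 tested genes of the same machinery gave 9 calls by edgeR for acetate in PBS-injected mice, where 8.84% of all genes tested were called, and 11 by DESeq2, where 9.41% were. All 9 calls were lost without PBS acetate mouse 2 (adjusted p of 0.150 to 0.242), a fit in which 15 genes were called in all. Other mice mattered too. Among others, the calls of Sstr4, Vipr1, Pcsk2, Chgb and Scg3 were lost without PBS acetate mouse 1 (0.118 to 0.231) and without PBS control mouse 3 (0.120 to 0.232). Those fits called 315 and 248 genes. With either marker covariate 0 of 14742 genes were called for this comparison. Among 17 tested of 21 peptide receptor genes, 2 were higher and 2 lower there, the 4 described with Sst, and the list's median log2 difference was 0.05. Among 13 genes of peptide processing and dense core vesicles, Scg3 was higher, at 0.20 (SE 0.06, adjusted p = 0.0692), and 3 were lower, with a list median of -0.06. The 3 were Chgb, a granin of the vesicle core, which fell by 0.61 (SE 0.16, adjusted p = 0.0727), the convertase Pcsk2, which fell by 0.28 (SE 0.07, adjusted p = 0.0321), and the vesicle priming factor Cadps, which fell by 0.27 (SE 0.07, adjusted p = 0.0379). Chgb went from 1226, 987 and 1177 CPM to 697, 631 and 887 CPM, without overlap.

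Among 8 tested of 10 other peptide precursors, 1 was called. Nts, the neurotensin precursor, rose from 2, 1 and 2 counts in PBS-injected control mice to 96, 55 and 13 counts in acetate mice (adjusted p = 0.0472). The 2 acetate mice with the most Nts were those high in Fezf2, and the part of that in the result was not tested. In the other 4 comparisons 0 of the 38 tested genes of these lists were called by edgeR, while the number with an unadjusted p below 0.05 was 8 for AD tau on the control diet (9.65% of all genes tested), 5 for diets in AD tau mice (10.9%), 2 for AD tau on the acetate diet (10.3%) and 9 for the interaction (13%). DESeq2 on all mice called 3 of them for the interaction, Vipr2, Grp and Nts, where 3.2% of genes were called, and 0 in the other 3 comparisons, where 0.785%, 1.55% and 0.882% were. The smallest p in each belonged to Vipr2 for AD tau on the control diet, at a log2 difference of -2.38 (unadjusted p = 0.00139, adjusted p = 0.294) and for the interaction at 3.48 (adjusted p = 0.118), to Cadps for diets in AD tau mice at -0.21 (adjusted p = 0.280), and to Nts for AD tau on the acetate diet at -2.08 (adjusted p = 0.402).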

How the data were processed

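Poly(A) RNA of 12 mice was sequenced. The authors aligned reads to GRCm38 with STAR and deposited unnormalized counts per gene for each mouse, made with HTSeq on the reverse strand. Nothing says whether mice shared a litter or cage. Groups came from the sample labels. Here genes were filtered by filterByExpr (minimum count 10, minimum total 15), normalized by TMM and tested in edgeR 4.0.16 (R 4.3.3) by robust quasi-likelihood over all 12 mice. Benjamini-Hochberg adjustment covered 14742 genes, called below 0.1. CPM are TMM-scaled, and FPKM divides them by the GENCODE exon length. DESeq2 1.42.0 was the alternative tool, and the code was tested on simulated data, where edgeR recovered 83% of genes changed 2-fold and 61.6% of those changed 1.5-fold for acetate in PBS mice among 14635 genes. Of the 166 genes edgeR called there, 22 had not been changed. The members and gene lists were chosen with earlier results of these data known. All 10 members were named, other list genes when called (at most 4 per list and comparison) or with the smallest p, and the 3 genes most alike to a called member. Alternatives were other size factors, no filter, DESeq2, the compared mice alone, an adjusted p below 0.05, a replicate block, 2 marker covariates, and each mouse left out. Leaving out both mice high in markers of other regions was added after seeing the data.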

Additional observations from a re-analysis of the deposited data

How the results depend on the processing

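The main fit called 1 of the 50 pairs of member and comparison, Penk for acetate in PBS-injected mice. That call was lost in 9 of the 22 alternatives, and 10 other values gained a call. In all, 1061 of 1080 member values kept their side of the threshold, nearly all of them uncalled throughout, so this number says little about the call. No called value changed sign, while 65 uncalled values did. For AD tau against PBS on the control diet, 0 members were called, but 1 by DESeq2 on all mice (Vip) and 2 by DESeq2 on the compared mice (Sst and Vip). These alternatives called 100 and 180 genes in all, where the main fit called 2. For acetate in AD tau-injected mice, the CA1 minus CA3 covariate called 1, Vip, lower at -0.71. That fit called 56 of 14742 genes, where the main fit called 9. For acetate in PBS-injected mice, where 1 was called (Penk), 2 were called by DESeq2 on all mice, by DESeq2 on the compared mice and by edgeR on the compared mice (Sst and Penk each time), and 0 at an adjusted p below 0.05, with either marker covariate, or without both mice high in other regions' markers, an alternative chosen after seeing the data. Over all genes, the main fit called 1303 there, and the alternatives that called Sst and Penk called 1387, 1274 and 1537 in turn. The number was 541 at an adjusted p below 0.05, 0 with either covariate and 1032 without both mice. Leaving out 1 mouse at a time, 0 to 2 members were called there and 0 to 1 for the interaction. Those fits called 15 to 1425 genes in all there and 8 to 442 for the interaction. The cause of these changes was not tested. For AD tau against PBS on the acetate diet, 0 members were called under all alternatives run, which called 0 to 138 genes in all.

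With the replicate block, the number of called members was 1 for acetate in PBS-injected mice and 0 in the other comparisons, so the block changed no call. Mice of different groups with the same number correlated at -0.10 to 0.14 in their deviations from the group means (18 pairs). Those with different numbers correlated at -0.14 to 0.15 (36 pairs), and 3 of 12 libraries correlated best with their own number. These values showed no sign that the numbers pair mice. With 3 mice per group they cannot settle whether mice of a number shared a cage, litter or preparation. Low counts limit Crh, 1 library limits Tac2, and the spread between 3 mice limits the others.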
